A study of Mus musculus with 6 samples.

Results

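The nuclear-encoded subunits of the mitochondrial respiratory chain were examined in myoepithelial cells cultured from the lacrimal glands of mice with and without TSP1. Members were all genes measured by a probe set with exactly 1 gene symbol whose symbol marks a subunit of complex I (Nduf genes), complex II (Sdh genes), complex III (Uqcr genes), cytochrome c oxidase or complex IV (Cox4 to Cox8 genes), or ATP synthase, complex V (Atp5 genes). Ndufa4l2 was left out by that rule. It gave 80 members of 22180 genes tested: 32 of complex I, 4 of complex II, 8 of complex III, 18 of complex IV and 18 of complex V. Ndufa4 is counted with complex IV, where its protein is found. The members were chosen by name, not by a measured value. Uqcrh-ps1 and Atp5c1-ps among them are pseudogenes, and a probe set of a pseudogene can share sequence with its parent gene. Ndufs6, Ndufb2, Ndufb4, Uqcr10 and Cox6c were named only on probe sets that carry several symbols and were not analysed here.

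Total RNA was hybridised to 6 Affymetrix Mouse Gene 2.0 ST arrays, 3 per group. Cells were grown from the exorbital lacrimal glands of female mice for about 2 to 3 weeks with no special treatment; myoepithelial cells are the contractile basal cells around the secretory units of the gland. One group came from mice that the labels call TSP1 null (also written TSP1-1), a name for loss of thrombospondin-1; Thbs1 encodes this protein, which cells secrete into the matrix. These mice serve the study as its dry eye model. The other group came from wild-type mice of strain C57BL/6J; the strain field of the null mice holds only the allele, and no age was used here. The null allele is present in the whole animal, so other cells carried into the culture lack TSP1 as well. Arrays of 1 group are named biological replicates with no word on separate animals or cultures, so p-values measure only the spread between these arrays, and the number of arrays limits the precision.

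Values are log2 signals, and differences are log2 differences, null minus wild type, from limma fitted over all genes with Benjamini-Hochberg adjusted p-values. Array medians lay between 5.25 and 5.32. Thbs1 measured 12.73, 13.03 and 13.00 on the null arrays and 13.51, 13.75 and 13.54 on the wild-type arrays, a difference of -0.68 (SE 0.13, adjusted p = 0.25 by limma). Its signal remained high in the null group; where its probes lie relative to the altered part of the gene was not known, so it does not check the labels. Of the myoepithelial markers, Acta2 was bright in both groups (mean 13.93 and 13.98), Krt14 had means of 6.12 and 5.23, and Trp63 lay below the median signal of 5.28 in both (4.82 and 4.55). Macrophage markers were present in the cultures: the 17 measured had mean signals of 8.98, 9.76 and 7.35 on the null arrays and 9.62, 10.22 and 10.40 on the wild-type arrays, lower in the null group for 17 of 17. In RNA of a mixed culture, fewer cells of a type and less RNA per cell cannot be told apart, which holds for every value that follows.

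The respiratory chain passes electrons from NADH through complex I, and from succinate through complex II, to ubiquinone, complex III, cytochrome c and complex IV, where oxygen is reduced. Complexes I, III and IV pump protons out of the mitochondrial matrix, and ATP synthase makes ATP as protons return. Most subunits are encoded in the nucleus and a smaller set in mitochondrial DNA. Several subunits of complex IV exist in a common form and in a form restricted to some tissues or conditions: Cox4i2 is the isoform of lung and of low oxygen, Cox7a1, Cox6a2 and Cox8b are isoforms of heart and skeletal muscle, and Cox6b2, Cox7b2 and Cox8c are best known from testis.

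The members differed little between the groups. Their differences ran from -0.25 for Ndufs5 to 0.54 for Cox4i2, with a median of 0.012, beside a median of 0.022 over all genes tested. Of the 80 members, 45 were higher in the null group and 35 lower; without the first wild-type array 39 were higher and 41 lower, with a median of -0.010. Limma gave an unadjusted p under 0.05 for 2 members, Cox4i2 and Cox7a1, both higher in the null group; that is 2.5% of the members, beside 10.6% of all genes, and 6.28% of all genes counting only those higher in the null group. The adjusted threshold of 0.05 was passed by 0 members, and by 0% of all genes; the smallest adjusted p of a member was 0.347, that of Cox4i2. The 3 null arrays and the 3 wild-type arrays did not overlap for 7 members, 8.75% of them, beside 15.8% of all genes. Of these 7, Ndufb11, Ndufv1, Cox4i2 and Cox7a1 were higher in the null group, 4 of 80 members beside 10.1% of all genes, and Ndufc1, Ndufb9 and Ndufab1 were lower.

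The intervals show how large a difference the arrays leave room for. The 95% interval of the difference lay inside a 1.5-fold change in either direction (0.585 on the log2 scale) for 72 of 80 members, or 90.0%, and for 70.0% of all genes. It lay inside a 2-fold change for 80 of 80 members. The median SE of a member's difference was 0.131, and that of all genes 0.14. The 8 members whose interval reached past 1.5-fold were Cox4i2 (0.17 to 0.91), Cox7a1 (0.10 to 0.89), Cox6b2 (-0.14 to 0.75), Cox6a2 (-0.65 to 0.24) and Cox5a (-0.59 to 0.17) of complex IV, Ndufa11 (-0.35 to 0.72) of complex I, and Atp5g2 (-0.14 to 0.59) and Atp5c1-ps (-0.20 to 0.91) of complex V. Of the 80 members, 74 had a mean signal above the median of all probe sets; the 6 below it were Ndufs5, Uqcrh-ps1, Cox7b2, Cox8b, Cox8c and Atp5c1-ps, and differences of such dim probe sets are compressed by background.

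**Figure D1:**
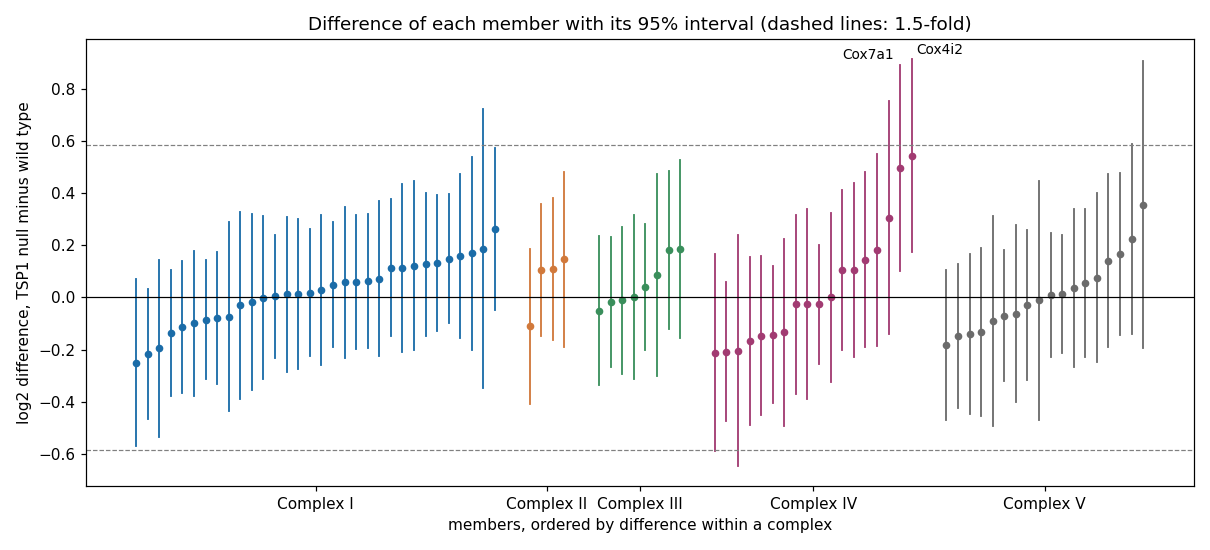
Difference in log2 signal between TSP1 null and wild-type arrays (null minus wild type, vertical axis) for the 80 members, ordered by difference within each complex (horizontal axis); points are limma estimates, bars their 95% intervals (n = 3 arrays per group), dashed lines 1.5-fold. The intervals of Cox4i2 and Cox7a1 lie above 0, and those of all other members cross it.

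In complex I, the NADH dehydrogenase that starts the chain, 20 of 32 members were higher and 12 lower in the null group, with a median of 0.023 and a range from -0.25 to 0.26. The 6 core subunits, which carry the flavin and iron-sulfur clusters, had a median of 0.060, and the 26 accessory subunits one of 0.015. Ndufv1, the core subunit that binds NADH and flavin, measured 8.62, 8.50 and 8.52 on the null arrays and 8.43, 8.30 and 8.46 on the wild-type arrays. All 3 null arrays lay above all 3 wild-type arrays, yet the difference was 0.15 (SE 0.11, adjusted p = 0.67 by limma).

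The accessory subunits of the membrane arm gave differences of both signs. Ndufb11 measured 5.83, 5.74 and 6.16 against 5.65, 5.67 and 5.61, a difference of 0.26 (SE 0.13, adjusted p = 0.54 by limma). The groups were apart, and the third null array stood highest. Ndufc1 measured 8.88, 8.77 and 8.86 against 9.10, 9.12 and 8.95, a difference of -0.22 (SE 0.11, adjusted p = 0.53 by limma), and the 3 null signals all lay below the 3 wild-type signals. Ndufs5, a dim probe set, measured 3.85, 4.07 and 3.77 against 4.32, 4.15 and 3.96, a difference of -0.25 (SE 0.14, adjusted p = 0.57), and its groups overlapped. Of the lower members without overlap, Ndufb9 measured 12.21 ± 0.01 against 12.35 ± 0.09 and Ndufab1, the mitochondrial acyl carrier protein, 7.52 ± 0.02 against 7.60 ± 0.05 (SD, n = 3); both were singled out after their values were seen.

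The most variable members of complex I varied within the groups. Ndufa11, an accessory subunit of the membrane arm, measured 10.19, 10.75 and 10.03 on the null arrays and 9.76, 10.28 and 10.37 on the wild-type arrays. The second null array was the highest and the first wild-type array the lowest, and the difference of 0.19 (SE 0.23) became -0.03 when the second null array was left out and -0.002 when the first wild-type array was. Ndufa9, which lies where the peripheral and membrane arms of complex I meet, measured 9.98, 9.57 and 9.79 against 9.51, 9.46 and 9.87, a difference of 0.17 (SE 0.16) with overlapping groups.

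Complex II, succinate dehydrogenase, belongs both to the chain and to the citrate cycle and is encoded wholly in the nucleus. Sdha, its flavoprotein, measured 10.43, 10.25 and 10.37 on the null arrays and 10.05, 10.48 and 10.08 on the wild-type arrays, a difference of 0.15 (SE 0.14, 95% interval -0.19 to 0.48). Sdhb, the iron-sulfur subunit, measured 9.33, 9.13 and 9.18 against 8.98, 9.11 and 9.23, a difference of 0.11 (SE 0.12). The wild-type arrays spread more than the null arrays for both genes, and the groups overlapped. The membrane anchors Sdhc and Sdhd had differences of opposite sign: Sdhc measured 9.92, 10.00 and 9.85 against 9.91, 9.95 and 10.25 (-0.11, SE 0.13), and Sdhd 9.64, 9.65 and 9.66 against 9.51, 9.45 and 9.68 (0.11, SE 0.11). The smallest adjusted p of the 4, by limma, was 0.77, for Sdha, and the intervals of all 4 lay inside 1.5-fold.

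In complex III, the cytochrome bc1 complex, 5 of 8 members were higher and 3 lower, with a median of 0.021 and all 8 intervals inside 1.5-fold; the median was -0.05 without the first wild-type array and 0.070 without the second null array. Uqcrq, a small membrane subunit, measured 7.08, 6.91 and 7.00 on the null arrays and 6.62, 7.01 and 6.82 on the wild-type arrays, a difference of 0.18 (SE 0.13, adjusted p = 0.67 by limma). Its second wild-type array lay inside the null range. The core protein Uqcrc1 measured 10.19, 9.73 and 9.89 against 9.59, 9.99 and 9.97, a difference of 0.09 (SE 0.17). The first null array was the highest and the first wild-type array the lowest, and the sign turned when either was left out (-0.04 without either one). The hinge protein Uqcrh had a difference of -0.05 (SE 0.12) and its pseudogene Uqcrh-ps1 one of 0.19 (SE 0.15) at a signal of 3.08, near the lower end of the scale. The remaining members, Uqcrc2, Uqcrb, the Rieske iron-sulfur protein Uqcrfs1 and Uqcr11, had differences between -0.019 and 0.040.

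**Figure D2:**
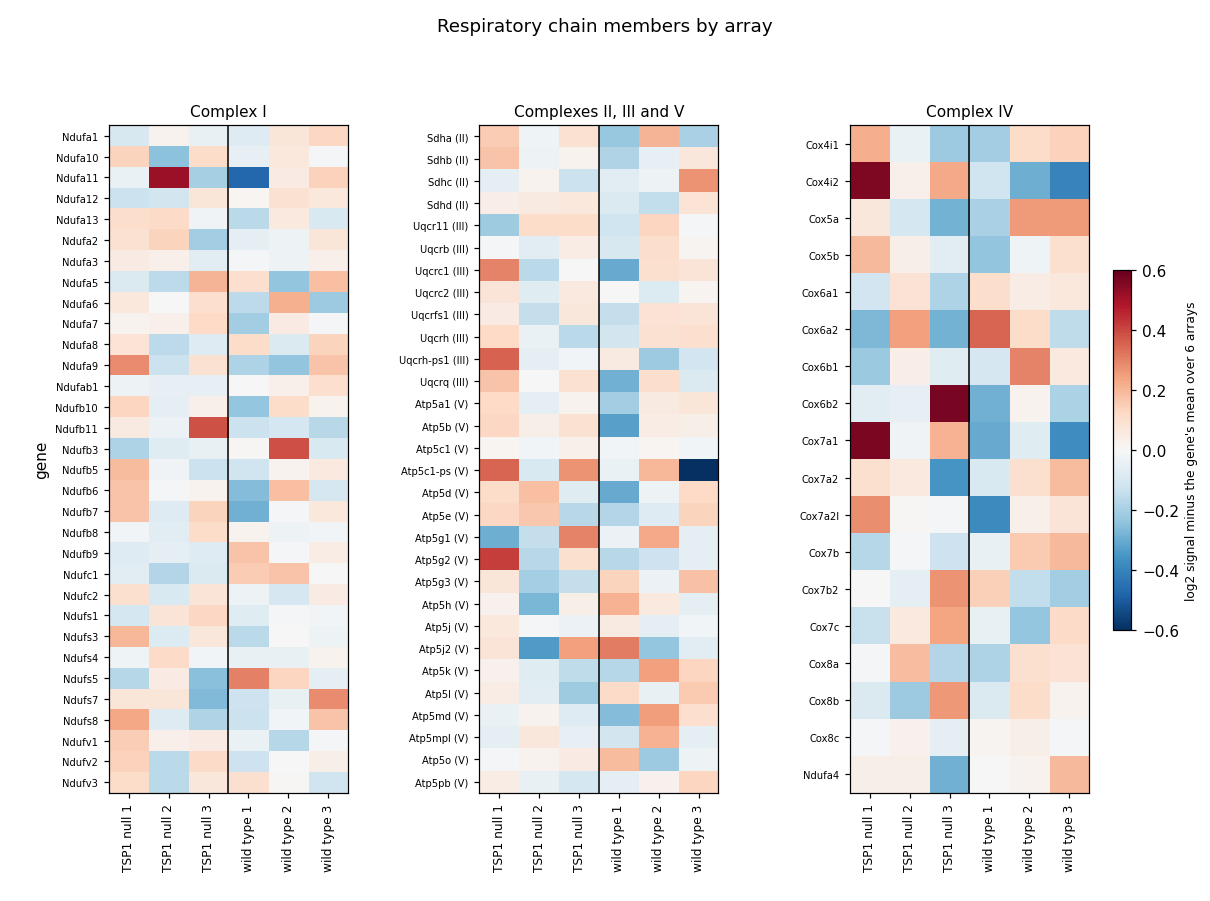
Log2 signal of each of the 80 members on each of the 6 arrays, minus the member's mean over the 6 arrays (colour scale, ends at 0.6 in either direction); the vertical line parts the 3 null from the 3 wild-type arrays. Cox4i2 and Cox7a1 are above their means on null arrays 1 and 3 and below them on every wild-type array, while the groups overlap for most other members.

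Complex IV, which reduces oxygen, held both members with an unadjusted p under 0.05 by limma. That is 2 of its 18 members, or 11.1%, close to the 10.6% of all genes. Cox4i2 encodes the low-oxygen isoform of subunit 4. It measured 7.30, 6.77 and 6.97 on the null arrays and 6.62, 6.45 and 6.34 on the wild-type arrays. Every null array lay above every wild-type array, with the first null array highest. The difference was 0.54 (SE 0.16), or 1.46-fold, with an unadjusted p of 0.01 and an adjusted p of 0.347 by limma. The exact two-sided permutation p was 0.1, the smallest that 3 arrays against 3 can give. Its common partner Cox4i1 measured 10.59, 10.33 and 10.15 against 10.16, 10.48 and 10.51, a difference of -0.03 (SE 0.16, 95% interval -0.39 to 0.34) with overlapping groups.

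Cox7a1 encodes the muscle isoform of subunit 7a. It measured 6.59, 6.00 and 6.23 on the null arrays and 5.72, 5.95 and 5.65 on the wild-type arrays. The groups did not overlap, although the second null array and the second wild-type array lay close together. The difference was 0.50 (SE 0.17), or 1.41-fold, with an unadjusted p of 0.02 and an adjusted p of 0.391 by limma, and an exact two-sided permutation p of 0.1. Without the first null array limma gave an unadjusted p of 0.0645, and without wild-type array 3 one of 0.0674, so the unadjusted call of Cox7a1 rested on each of these arrays; that of Cox4i2 was made without any 1 of the 6 arrays. Its common partner Cox7a2 measured 9.80, 9.76 and 9.35 against 9.61, 9.80 and 9.89, a difference of -0.13 (SE 0.15, 95% interval -0.49 to 0.22).

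The other pairs of isoforms had overlapping groups in both forms. Cox6b2 measured 6.79, 6.81 and 7.43 on the null arrays and 6.57, 6.88 and 6.67 on the wild-type arrays, a difference of 0.31 (SE 0.19, adjusted p = 0.62 by limma) in which the third null array stood far above the rest. Its partner Cox6b1 measured 10.21, 10.47 and 10.36 against 10.33, 10.73 and 10.49, a difference of -0.17 (SE 0.14). Cox6a2 measured 8.24, 8.76 and 8.23 against 8.86, 8.62 and 8.36, a difference of -0.20 (SE 0.19), the sign opposite to that of Cox7a1, which is known from the same muscles. Cox6a1 measured 13.14, 13.34 and 13.07 against 13.36, 13.30 and 13.32, a difference of -0.14 (SE 0.11). Of the subunit 8 isoforms, Cox8a had a difference of 0.00 (SE 0.14) at a mean of 11.43, and the dim Cox8b and Cox8c had differences of -0.03 each (SE 0.15 and 0.10). The dim Cox7b2 had a difference of 0.14 (SE 0.14).

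**Figure D3:**
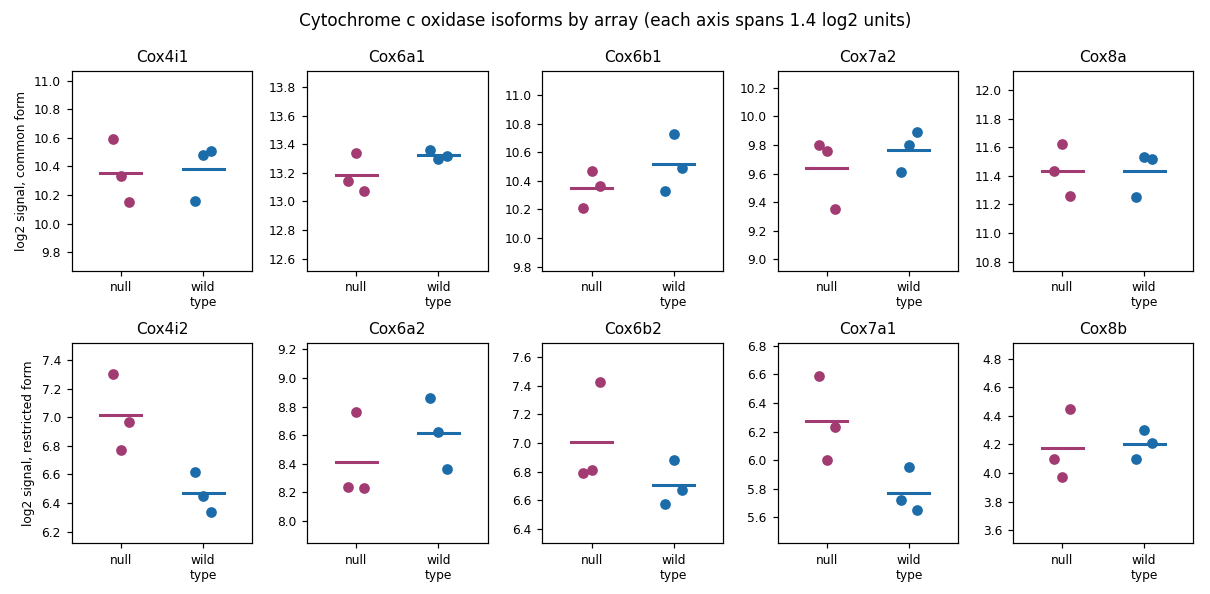
Log2 signal of 5 common isoforms of cytochrome c oxidase subunits (upper row) and of their restricted counterparts (lower row); points are the 3 arrays of each group, lines group means, and every vertical axis spans the same range. Of the 10 genes plotted, the groups are apart for Cox4i2 and Cox7a1 alone, and levels of different genes cannot be set against each other because each has its own probes.

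The 7 restricted isoforms had a median difference of 0.144, with 4 higher and 3 lower, and the 11 other members of complex IV one of -0.13, with 4 higher and 7 lower. After each array was centred on its median these counts were 6 higher and 1 lower, and 5 higher and 6 lower. Single arrays carried much of both medians: without null array 3 that of the restricted isoforms was 0.044 and that of the 11 others 0.009, with 6 higher and 5 lower. Without wild-type array 3 they were 0.076 and -0.07, and without the second wild-type array 0.104 and -0.06. The second null array left out gave 0.208 and -0.20, the first wild-type array left out 0.236 and -0.14, and the 4 restricted isoforms above the median signal had a median of 0.401. Limma gave an unadjusted p under 0.05 for 0 of those 11 in the fit of all 6 arrays. The subunit Cox7b measured 9.68, 9.84 and 9.73 on the null arrays and 9.81, 10.01 and 10.05 on the wild-type arrays, a difference of -0.21 (SE 0.12, adjusted p = 0.57 by limma); only the first wild-type array reached into the null range. Ndufa4 measured 11.11, 11.11 and 10.79 against 11.08, 11.10 and 11.27, a difference of -0.15 (SE 0.13). Cox5a, named after its values were seen, measured 9.65, 9.48 and 9.30 against 9.39, 9.84 and 9.84, a difference of -0.21 (SE 0.16) with the first wild-type array inside the null range. The median over all 18 members of complex IV was -0.026, 0.012 after median centring, and from -0.078 (first wild-type array) to 0.018 (second wild-type array) with 1 array left out.

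Markers of cells in which the restricted isoforms are known to be expressed were read on the same arrays. Of the 10 skeletal and heart muscle markers, 4 were higher and 6 lower in the null group, with mean signals of 5.36, 5.25 and 5.18 on the null arrays and 5.16, 5.31 and 5.44 on the wild-type arrays; muscle creatine kinase Ckm had means of 5.55 and 5.45. Of the 5 brown adipocyte markers 0 lay above the median signal, and Ucp1 had means of 4.38 and 4.49. Of the 8 markers of pericytes and vascular smooth muscle, a list added after the values were seen, 3 were higher and 5 lower, with mean signals from 6.43 to 6.83 on the null and from 6.48 to 6.68 on the wild-type arrays. Limma gave 2 of these 8 an unadjusted p under 0.05, both higher in the null group with no overlap. Over all genes 10.6% had such a p, and for 15.8% the groups did not overlap. The receptor Notch3 measured 7.56, 7.98 and 7.09 against 6.54, 7.03 and 6.88 (0.73, SE 0.23), and the growth factor receptor Pdgfrb 11.58, 11.64 and 11.48 against 11.13, 11.32 and 11.28 (0.32, SE 0.11). Rgs5, another marker of these cells, had a difference of -0.23 (SE 0.58). The mean of that list was highest on null array 2 (6.83), where Rgs5 measured 7.13, beside 5.44 and 5.67 on the other null arrays. Acinar markers had mean signals of 5.77, 5.60 and 5.70 against 5.84, 5.88 and 5.92, and fibroblast markers 10.52, 11.14 and 10.65 against 11.22, 10.24 and 10.48. Of the 8 fibroblast markers 5 were higher and 3 lower in the null group. Col1a1 (0.54), Col1a2 (0.51) and Col3a1 (1.03) had an unadjusted p under 0.05 by limma and no overlap, as did the basal marker Krt14 (0.89). Of the 6 acinar markers 2 had such a p, both lower. The part of any of these cells in the values of Cox4i2 and Cox7a1 was not tested.

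Complex V, the ATP synthase, had 9 members higher and 9 lower and a median of -0.001, which was 0.014 after quantile normalization and 0.037 after median centring. Its soluble part F1, where ATP is made, was measured by 5 subunits, all with a difference above 0 (0.014 to 0.167, median 0.076). The 12 subunits of the membrane part Fo and the peripheral stalk had a median of -0.066, with 3 higher and 9 lower. With array weights 4 of the 5 F1 subunits lay above 0, and after median centring 5 of the 12 others did. Without the first wild-type array the F1 median was 0.010, with 4 of 5 above 0, and without the first null array 0.032; without null array 3 or wild-type array 3 it was 0.164. With the second null and first wild-type arrays both left out, a setting chosen after the data were seen, it was 0.008, with 3 of 5 above 0. The median of Fo and the peripheral stalk was -0.10 without the first wild-type array. The catalytic beta subunit Atp5b measured 12.48, 12.39 and 12.45 on the null arrays and 12.03, 12.40 and 12.39 on the wild-type arrays. The difference of 0.17 (SE 0.13, adjusted p = 0.71 by limma) came with a first wild-type array far below the other 5 arrays.

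The 3 genes for the ring subunit c encode the same mature protein behind different import sequences, and their differences had both signs. Atp5g1 had a difference of -0.09 (SE 0.17). Atp5g2 measured 11.96, 11.38 and 11.64 on the null arrays and 11.38, 11.42 and 11.49 on the wild-type arrays, a difference of 0.22 (SE 0.16) with the second null array at the bottom of the wild-type range. Atp5g3 measured 9.20, 8.92 and 8.98 against 9.26, 9.09 and 9.30, a difference of -0.18 (SE 0.12). Their adjusted p-values by limma were 0.89, 0.66 and 0.65. Atp5j2, the Fo subunit with the largest spread over the arrays, measured 5.78, 5.36 and 5.95 against 6.01, 5.47 and 5.64, a difference of -0.01 (SE 0.20). The pseudogene Atp5c1-ps measured 4.27, 3.83 and 4.19 against 3.88, 4.12 and 3.23, a difference of 0.35 (SE 0.24) with the third wild-type array lowest; Atp5c1 itself, the gamma subunit of the rotor, had 6.67 ± 0.02 against 6.66 ± 0.02 (SD, n = 3).

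Read by array, the levels of the members did not part by group. After each member's own mean over the 6 arrays was taken off, the mean over the 80 members was 0.060, -0.024 and 0.002 on the null arrays and -0.078, 0.024 and 0.016 on the wild-type arrays. The first null array was highest and the first wild-type array lowest, and of the other 4 the null arrays lay just below the wild-type arrays. The same 2 arrays were the extremes in complexes I, II, III and IV, at 0.048 and -0.068, 0.077 and -0.140, 0.105 and -0.126, and 0.052 and -0.092; in complex V the first null array was highest (0.067) and the second null array lowest (-0.056), with the first wild-type array next (-0.047). The first null array gave the highest signal for 28 of 80 members and for 4001 of 22180 genes, and the first wild-type array the lowest for 25 of 80 members and for 5375 of 22180 genes. The restricted isoforms followed another pattern, with 0.098, -0.007 and 0.173 on the null arrays and -0.042, -0.035 and -0.187 on the wild-type arrays. So did the 11 other members of complex IV, with 0.023, 0.030 and -0.141 on the null arrays and -0.124, 0.079 and 0.134 on the wild-type arrays. Taken alone, these 11 were lowest on null array 3 and highest on wild-type array 3, unlike complex IV as a whole.

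**Figure D4:**
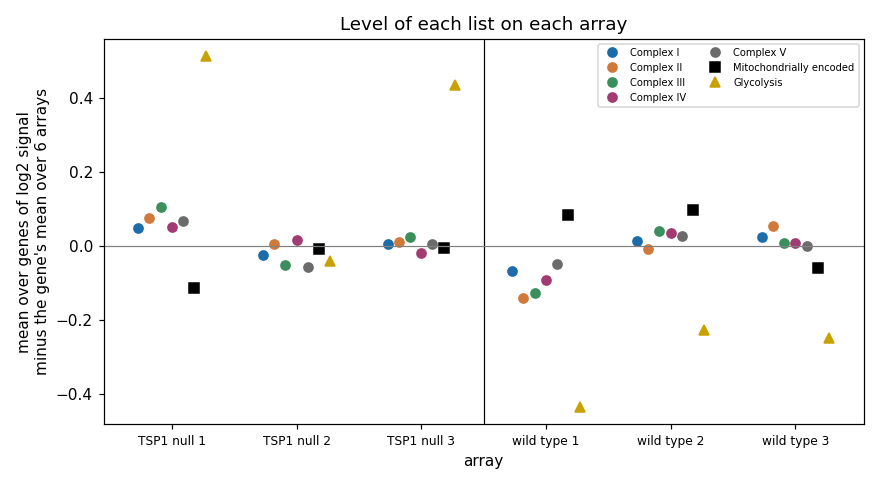
Mean over the genes of a list of the log2 signal minus each gene's own mean over the 6 arrays (vertical axis), by array (horizontal axis), for the 5 complexes, the mitochondrially encoded subunits and the glycolysis list. The complexes lie between -0.140 and 0.105 on every array, with the first null array high and the first wild-type array low, while glycolysis runs from -0.434 to 0.513.

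Subunits encoded in mitochondrial DNA were measured by 10 probe sets, all for subunits of complexes I, III and IV. COX2 and the complex V subunits ATP6 and ATP8 were sought but were not among the genes tested. Of the 10, 9 were lower and 1 higher in the null group, with a median of -0.103. After median centring they were 8 lower and 2 higher. ND3 of complex I measured 13.11, 13.26 and 12.98 on the null arrays and 13.35, 13.56 and 13.37 on the wild-type arrays, a difference of -0.31 (SE 0.12, adjusted p = 0.443 by limma) with no overlap; it was the only one of the 10 with an unadjusted p under 0.05. ND6, the gene read from the other strand, was the higher one at 0.29 (SE 0.20). The list was lowest on the first null array (-0.112), where the nuclear-encoded members were highest (0.060). These probe sets lie near the top of the scale, whose highest value was 14.2.

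Genes that serve the chain were described by lists. Of 44 assembly factors, 3 were higher and 1 lower at an unadjusted p under 0.05 by limma, 9.09% of the list, beside 10.6% of all genes; the list's share is no higher than that background. They were Ndufaf3 (0.32, SE 0.12) and Foxred1 (0.31, SE 0.13) of complex I assembly, Atpaf1 (0.29, SE 0.11), a chaperone of the F1 head, and Cox16 (-0.37, SE 0.11), which serves complex IV. Of 11 cytochromes and partners outside the members' rule, 2 had such a p, both higher. Higd1a, a hypoxia-induced protein that binds complex IV, measured 8.64, 8.02 and 8.50 on the null arrays and 7.77, 7.39 and 7.56 on the wild-type arrays, a difference of 0.81 (SE 0.18, adjusted p = 0.29). Ndufa4l2, a relative of Ndufa4 known to be induced at low oxygen, measured 10.56, 9.20 and 10.40 against 9.22, 7.68 and 7.39, a difference of 1.96 (SE 0.52, adjusted p = 0.324) with the first wild-type array inside the null range. Among the null arrays, the second gave the lowest signal for both, as it did for Cox4i2 and Cox7a1. Some lists shared this order and others did not. The second was also the lowest null array in the mean over the 80 members (-0.024), glycolysis (-0.041), the mitochondrial ribosome (-0.076) and import genes (-0.094). Among the null arrays, complex IV was instead lowest on the third (-0.019), and the mitochondrially encoded subunits on the first (-0.112). Over all genes tested the second was the highest null array, with means of 0.002, 0.011 and -0.004 on the 3 null arrays.

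Pathways beside the chain were read the same way. Of 15 glycolysis genes, 14 were higher in the null group, with a median of 0.496. Limma gave 11 of them an unadjusted p under 0.05, or 73.3% of the list. Over all genes 10.6% had such a p, and 6.28% counting only those higher in the null group. Pfkl had a difference of 1.42 (SE 0.20) and the glucose transporter Slc2a1 one of 1.05 (SE 0.20). The citrate cycle and pyruvate dehydrogenase, which supply the chain with electrons, had 16 genes measured, a median of 0.002 and 0 genes with such a p; Dlat had the difference 0.24 and Dld -0.17. The 18 regulators of mitochondrial genes had a median of 0.040 and 0 such genes, with 0.36 for the helicase Twnk and 0.24 for the transcription factor Nrf1. The 71 genes of the mitochondrial ribosome had a median of 0.075 (50 higher, 21 lower, 0 such genes; Mrps5 0.24, Mrpl27 0.22), with medians from 0.041 (first wild-type array left out) to 0.151 (second null array left out). The 67 genes with symbols of the Rpl or Rps form had a median of 0.047 (2 such genes or 2.99%, Rps27 at 0.52 and Rps14 at 0.34). Of the 67, 8 are not ribosomal proteins, among them S6 kinases, and the other 59 had a median of 0.049. The 18 genes of mitochondrial import and the outer membrane had a median of 0.045 and 0 such genes, with 0.35 for the fusion protein Mfn2 and -0.32 for the chaperonin Hspe1. All p-values here are limma's, and 0 of these genes passed the adjusted threshold.

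**Figure D5:**
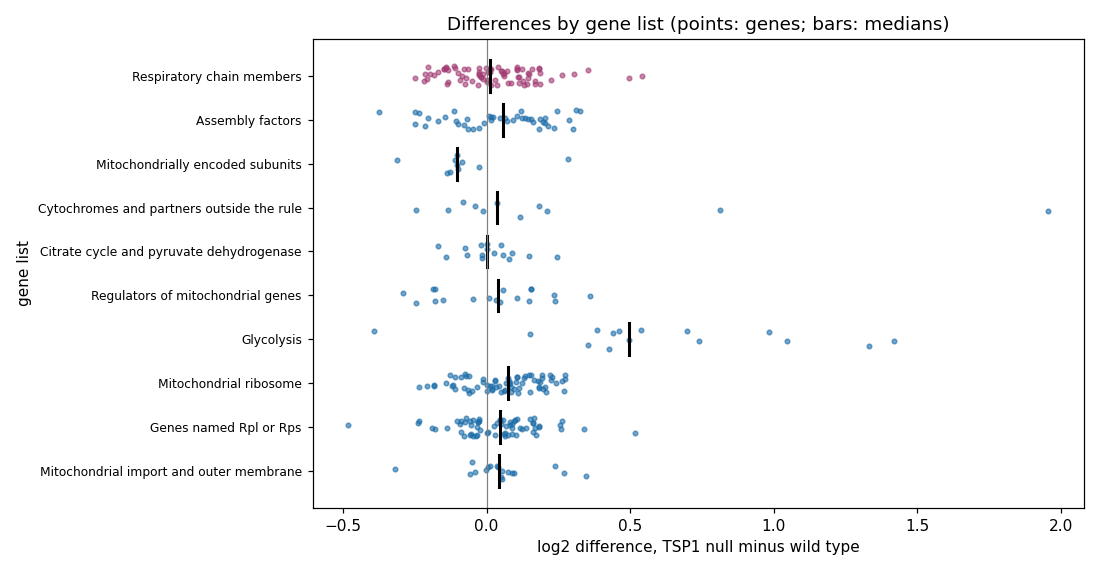
Log2 difference (null minus wild type, horizontal axis) of each gene in the respiratory chain and in 9 related lists (vertical axis); points are genes, shifted vertically at random within a list, and bars are medians. The members centre on 0.012 and end at 0.54, and glycolysis centres on 0.496.

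Promoter sequence was available for 65 of the 80 members, as 70 windows of 250 bases before the annotated start (RefSeq, GRCm38.p6). Motifs known from mitochondrial genes were searched on both strands: the NRF1 motif GCGCANGCGC, the ETS motif CCGGAAG bound by GABP, the YY1 motif ATGGCG, and the hypoxia response cores ACGTG and GCGTG. An NRF1 match with C at its open base also holds the core GCGTG, on the other strand; the other strings do not contain each other. The NRF1 motif stood in 12 of 70 member windows (17.1%) and in 3.74% of all 32851 windows, the ETS motif in 12 (17.1%) and 6.91%, and the YY1 motif in 10 (14.3%) and 5.73%. The cores ACGTG and GCGTG stood in 21.4% and 41.4% of member windows and in 16.6% and 28.2% of all windows; in 1 of the member windows the core GCGTG lay only inside an NRF1 match. A match is a description of the letters, not a site, and no binding was measured. The windows shown are those of 1 common subunit with NRF1 and ETS motifs and of the isoform pair of subunit 7a. The groups of arrays parted for Cox7a1 and overlapped for Cox7a2. Cox4i2, the member with the largest difference, and its partner Cox4i1 were among the members without a window. Capitals mark matches to the searched motifs. Cox6a1 (chr5:115348959-115349208, minus strand) holds the NRF1 motif 2 times and the ETS motif 1 time, and its groups of arrays overlapped. Cox7a2 (chr9:79759854-79760103, minus strand) holds the core GCGTG 1 time, read from the other strand, and Cox7a1 (chr7:30183921-30184170, plus strand) holds it 2 times, 1 of them read from the other strand.
Cox6a1: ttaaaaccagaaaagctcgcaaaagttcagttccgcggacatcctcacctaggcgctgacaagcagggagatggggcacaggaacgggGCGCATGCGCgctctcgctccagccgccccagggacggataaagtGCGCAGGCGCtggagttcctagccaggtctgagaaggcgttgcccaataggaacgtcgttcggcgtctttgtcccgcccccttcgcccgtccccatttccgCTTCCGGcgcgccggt
Cox7a2: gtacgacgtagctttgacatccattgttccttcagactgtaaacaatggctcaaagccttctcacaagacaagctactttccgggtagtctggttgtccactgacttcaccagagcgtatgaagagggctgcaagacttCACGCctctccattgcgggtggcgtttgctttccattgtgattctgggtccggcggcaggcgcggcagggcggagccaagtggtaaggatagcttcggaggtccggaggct
Cox7a1: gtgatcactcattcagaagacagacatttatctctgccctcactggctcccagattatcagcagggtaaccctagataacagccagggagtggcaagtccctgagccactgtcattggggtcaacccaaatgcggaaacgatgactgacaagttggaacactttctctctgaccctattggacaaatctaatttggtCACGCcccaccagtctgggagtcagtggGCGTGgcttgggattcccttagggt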

How the data were processed

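Each of the 6 arrays has 41345 log2 signals, deposited as made with Partek and RMA per the submitters' processing notes. Versions, settings and a genome build were not given in the sources used here. That the scale is log2 follows from the values (1.83 to 14.2). Labelling started from 150 ng of Trizol-extracted RNA, per the labels' protocols. Groups came from the sample titles and source names.

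The platform's annotation named the probe sets: 23521 carried 1 symbol, 1814 several and 16010 none. The probe set of highest mean over the 6 arrays stood for a gene, which gave 22180 genes, and 89 matching probe sets gave the 80 members. In 7 of the 9 members with more than 1 probe set the probe sets had differences of the same sign; Cox5b and Ndufa12 were the exceptions. No filter on dim signals was used.

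limma 3.58.1 (lmFit, eBayes, two-sided, no covariates, R 4.3.3) was fitted over all genes, with Benjamini-Hochberg adjustment at 0.05. Intervals are limma's at 95%. Figures used Python 3.11.15 and matplotlib 3.10.9. The procedure was tested on simulated data. The main fit did not pair arrays by replicate number. Same-numbered arrays correlated at -0.144, 0.184 and -0.162 in their deviations from the group means. Deviations within a group of 3 sum to 0, so these values cannot decide whether replicate numbers pair the arrays.

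Named in each complex were the 4 members of smallest p and the 2 of largest SD, all Sdh genes, the isoform pairs and Ndufa4, and in each other list the 2 genes of smallest p; other genes are named where a count is small. The members, lists, tests and alternatives were chosen with earlier results of these data known. Promoter windows came from a RefSeq table of GRCm38.p6, which was used only for sequence.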

Additional observations from a re-analysis of the deposited data

How the results depend on the processing

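The settings tried were quantile normalization, median centring, the mean of probe sets, leaving out dim probe sets, array weights, a robust prior with an intensity trend, a replicate block, an ordinary linear model, leaving out each array in turn, and, chosen after the data were seen, leaving out the second null and first wild-type arrays together. The adjusted threshold was passed by 0 members in each of them. The count of members at an unadjusted p under 0.05 was 2, 4 with array weights (Cox4i2, Cox7a1, Cox7b and Atp5c1-ps), and 1 to 4 when 1 array was left out: 1 without the first null array or wild-type array 3 (Cox4i2), 4 without the second null array (Cox4i2, Cox7a1, Atp5g2 and Ndufb11) and 4 without the first wild-type array (Cox4i2, Cox7a1, Cox5a and Cox7b). The share of all genes at such a p was 10.6% in the main fit and 14.5% with array weights. It was 6.75% without the first null array, 8.22% without wild-type array 3, and 12.3% without the second null or the first wild-type array. The cause of these shifts was not tested. With both the second null and first wild-type arrays left out the count of members was 3 (Cox4i2, Cox7a1 and Cox7b), beside 15.8% of all genes. In that setting 365 of all genes passed the adjusted threshold and the adjusted p of Cox4i2 by limma was 0.0819. With the replicate block the count was 2, beside 9.99% of all genes, and the block changed no call of a member; with the ordinary linear model it was also 2, with Ndufc1 in place of Cox7a1. Over all settings the difference of Cox4i2 ran from 0.399 to 0.741 and that of Cox7a1 from 0.34 to 0.632. Median centring gave 55 members higher and 25 lower, against 45 and 35, as it moved the median of all genes from 0.022 to 0.060; without the first wild-type array it was 39 and 41, with the median of the members at -0.010. Of 32 named members, 9 changed sign under some setting, each with a difference below 1 SE; of the 20 with a difference above 1 SE, 0 did. Without the second null array the median of the glycolysis list was 0.746. With 1 array left out the medians of complexes III, IV and V, of assembly factors, cytochromes and partners, the citrate cycle, regulators, Rpl and Rps genes, and import genes took both signs, and those of complexes I and II, mitochondrially encoded subunits, the mitochondrial ribosome and glycolysis did not. The 6 members below the median signal have compressed differences.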
